A study of Homo sapiens with 9 samples.

Results

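The comparison described here is that of C4 with B3, a pair of lines made from LN229 cells by CRISPR knockout of ARNT2. LN229 is an established cell line grown from a human glioblastoma. The libraries compared were taken by line, and they are 6 of the 9 libraries of the series: 3 of C4 and 3 of B3. The remaining 3 libraries are of wild-type LN229 cells (WT), and they are given beside the lines as the reference. All 3 groups were grown in DMEM with 5% FBS, and no other treatment, allele or time is labelled. The study's question was the role of ARNT2 in how glioblastoma cells proliferate and differentiate. The labels say neither how B3 and C4 were isolated nor what sequence change each carries. Separate cultures are not stated for the libraries of a line, so p-values reflect the spread of these libraries alone, and that spread may be technical.

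ARNT2 is a transcription factor of the bHLH-PAS family that pairs with partners of the same family, among them the hypoxia inducible factors and neural factors such as NPAS4 and SIM1. Several knockout lines are usually compared with their parent, and here the lines are compared with each other. Glioblastoma is a glial tumour whose cells commonly carry gains and losses of chromosomes and express glial, neural progenitor and mesenchymal genes together.

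The deposited values are log2 expression values scaled between libraries, and their read depth is unknown. Differences are C4 minus B3 on that log2 scale, given ± SE from limma with n = 3 libraries per line. A gene is called higher or lower where limma's Benjamini-Hochberg adjusted p was under 0.05. Differences of weakly expressed genes may be understated, because their values appear to be damped. The transform is not named, and this is inferred from the values.

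The lines differed widely and mostly by little. Of 16457 genes tested, 9284 (56.4%) were called, 4705 (28.6%) higher in C4 and 4579 (27.8%) lower. The median absolute difference over called genes was 0.17, and 50 genes were higher and 27 lower in C4 by at least 1. Without overlap between the C4 and B3 libraries were 62.3% of tested genes, 31.4% with C4 higher and 30.9% with C4 lower, so that a gap between the libraries was the common case. Across genes, the difference between the line means had an SD of 0.22, against 0.055 to 0.071 for pairs of libraries of the same line. The comparisons with wild type called 9244 genes (56.2%) in C4 and 7876 (47.9%) in B3. Both comparisons use the same wild-type libraries, so their values are set side by side below without a test of likeness.

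The RNA of the targeted gene was reduced but still present in both lines: B3 held 31.1% and C4 37.1% of what wild type had. ARNT2 (ENSG00000172379.20, chr15:80404350-80597937, plus strand, GRCh38) had values of 13.56, 13.59 and 13.58 in the wild-type libraries, 11.91, 11.90 and 11.86 in B3 and 12.22, 12.15 and 12.05 in C4. The C4 libraries lay above all B3 libraries and below all wild-type libraries. The difference was 0.25 ± 0.03 (limma adjusted p = 4.42e-07), which puts C4 at 119% of the B3 level. The two-sided exact permutation test of C4 against B3 gave p = 0.1, the smallest value that 3 against 3 libraries allow. Neither the RNA level nor any other value here shows how much protein was made.

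SOD3, CPXM2 and MGST1 were among the genes furthest higher in C4. SOD3, the extracellular superoxide dismutase (ENSG00000109610.5, chr4:24789912-24800842, plus strand, GRCh38), had values of 10.53, 10.53 and 10.50 in B3 and 13.10, 13.04 and 13.09 in C4, a difference of 2.56 ± 0.03. The wild-type libraries stood at 13.54, 13.54 and 13.40, so that C4 lay much nearer to wild type than B3. CPXM2, a secreted carboxypeptidase-like protein, had 10.88, 10.78 and 10.81 in B3 and 12.98, 12.97 and 12.99 in C4, against 12.75, 12.65 and 12.64 in wild type. Its difference was 2.16 ± 0.03, and the 3 groups did not overlap. MGST1, a membrane-bound glutathione transferase, had 9.12, 9.03 and 9.05 in B3 and 11.26, 11.11 and 11.15 in C4, a difference of 2.11 ± 0.04, with wild type at 10.89, 10.85 and 10.88. For these 3 genes the distance to wild type was larger in B3: -2.98, -1.86 and -1.80 in B3 minus wild type, in the order named, against -0.42, 0.30 and 0.30 in C4 minus wild type.

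In other genes higher in C4 the lines also lay on opposite sides of wild type, as they did in CPXM2 and MGST1. CADM2, an immunoglobulin-type adhesion molecule of neurons and glia (ENSG00000175161.13, chr3:84958981-86074429, plus strand, GRCh38), had 9.57, 9.59 and 9.67 in B3 and 12.11, 12.04 and 12.03 in C4, with 10.34, 10.33 and 10.27 in wild type. Its difference was 2.45 ± 0.04, and no library of C4 came within 1 log2 unit of wild type or B3. NRN1, a membrane-anchored protein that promotes neurite growth, had 9.59, 9.62 and 9.58 in B3, 11.97, 11.88 and 11.91 in C4 and 11.17, 11.26 and 11.18 in wild type, a difference of 2.32 ± 0.04. CHL1, a relative of L1CAM in neural adhesion, stood at 11.05, 11.15 and 11.13 in B3, 13.06, 12.97 and 13.01 in C4 and 11.38, 11.29 and 11.27 in wild type. Its difference of 1.90 ± 0.03 came mainly from C4, which lay 1.70 above wild type while B3 minus wild type was -0.20. The growth regulator CGREF1, the immunoglobulin-like receptor ILDR2 and the membrane-associated protein PLEKHB1 were higher in C4 by 1.70 ± 0.05, 1.63 ± 0.05 and 1.51 ± 0.02.

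The cancer-testis antigen MAGEC2 had the largest difference upwards among the genes named by rule. MAGEC2 (ENSG00000046774.9, chrX:142202345-142205290, minus strand, GRCh38), a gene normally restricted to germ cells, had 8.21, 8.19 and 8.15 in B3, 10.72, 10.73 and 10.80 in C4 and 8.92, 9.05 and 9.16 in wild type. The difference was 2.57 ± 0.05, with B3 below and C4 above all wild-type libraries. CTAG2 and MAGEA10 were higher in C4 by 2.40 ± 0.03 and 2.23 ± 0.03, and MAGEC1 by 1.29 ± 0.05. Of 24 listed members tested, 9 were higher in C4 and 4 lower, beside 28.6% and 27.8% of all tested genes. The list's median was 0.01, and MAGEA1 was lower, at -0.22 ± 0.02. Genes of the CTAG, MAGE, PAGE and GAGE families have near-identical copies, between which the counting could have split reads, so their values are uncertain.

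TMPRSS15 had the largest difference downwards among the genes named by rule, followed by HAPLN1. TMPRSS15, the gene of enteropeptidase, a membrane-bound serine protease (ENSG00000154646.8, chr21:18269116-18485879, minus strand, GRCh38), had 13.03, 13.12 and 13.03 in B3 and 10.52, 10.48 and 10.45 in C4, a difference of -2.58 ± 0.03. Wild type had 13.29, 13.40 and 13.35, close above B3. HAPLN1, the link protein that fixes proteoglycans to hyaluronan (ENSG00000145681.10, chr5:83637805-83721613, minus strand, GRCh38), had 14.78, 14.77 and 14.88 in B3, 12.50, 12.36 and 12.36 in C4 and 14.39, 14.34 and 14.27 in wild type. ACAN, the proteoglycan aggrecan, which HAPLN1 binds, had 12.86, 12.83 and 12.81 in B3, 11.15, 11.21 and 11.15 in C4 and 12.28, 12.19 and 12.24 in wild type. HAPLN1 and ACAN were thus both lower in C4, at -2.40 ± 0.04 and -1.66 ± 0.03, with B3 above and C4 below wild type and no overlap between any groups. HS3ST3A1, which sulfates heparan chains, the bradykinin receptor gene BDKRB2, the adhesion molecule FLRT2, the reductase gene CYB5R2 and the hedgehog-binding protein HHIP differed by -1.50 ± 0.03, -1.53 ± 0.04, -1.49 ± 0.05, -1.45 ± 0.03 and -1.34 ± 0.03.

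VEGFA and CXCL8, which encode secreted signals for blood vessel growth and neutrophil recruitment, were lowest in C4. VEGFA had 13.20, 13.18 and 13.17 in wild type, 12.91, 12.90 and 12.97 in B3 and 11.57, 11.53 and 11.56 in C4, a difference of -1.37 ± 0.03. CXCL8 had 14.56, 14.59 and 14.54 in wild type, 14.03, 14.05 and 14.19 in B3 and 12.71, 12.65 and 12.66 in C4, a difference of -1.42 ± 0.03. In both genes the B3 libraries lay below wild type as well, with B3 minus wild type at -0.26 and -0.47, and the C4 libraries lay more than a full log2 unit further down.

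**Figure D1:**
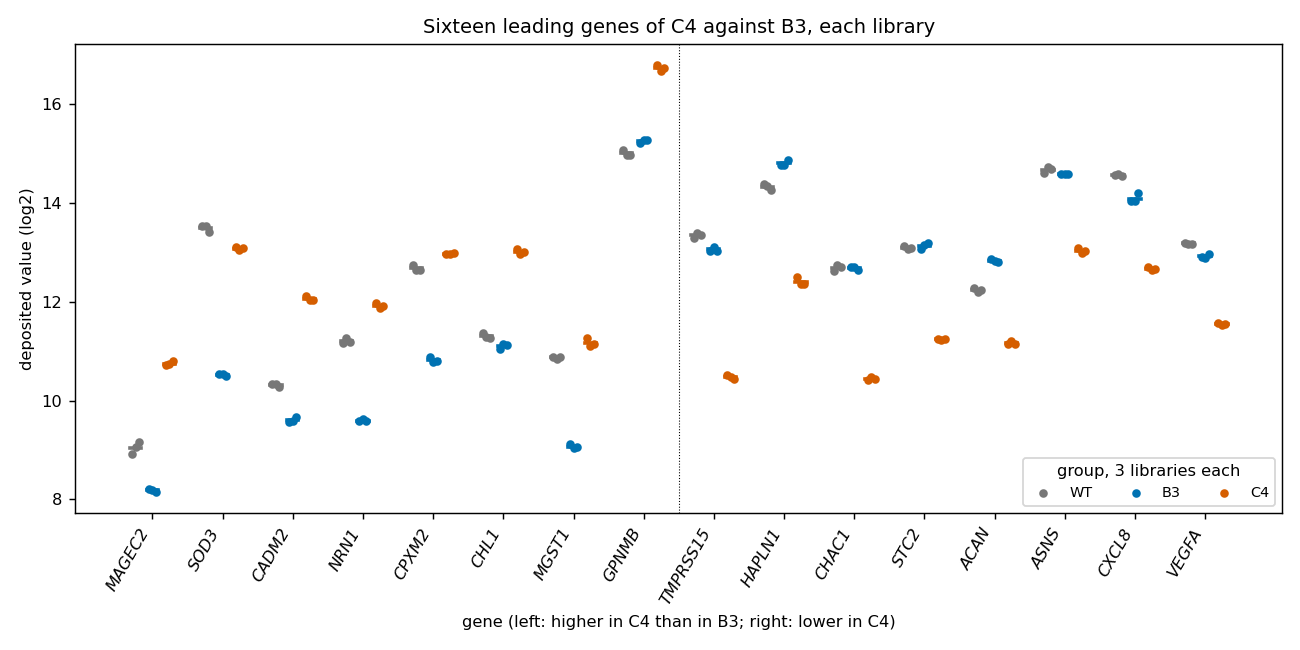
Deposited log2 values (vertical axis) of 16 genes in each library, with points for single libraries, short lines for the group means, and colours for WT, B3 and C4 (3 libraries each). In all 16 genes the C4 points lie clear of the B3 points, and for SOD3, CPXM2 and MGST1 it is B3 that lies far from wild type, while for TMPRSS15, CHAC1, STC2, ASNS and VEGFA it is C4.

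The list with the largest median difference was that of the amino acid stress response. In this response the kinase GCN2 and its relatives slow general translation, which lets the transcription factor ATF4 be made, and ATF4 with its partners switches on genes for amino acid uptake, amino acid synthesis and tRNA charging through an element read as an amino acid response element. Of 32 listed ATF4 and amino acid stress genes tested, 31 were lower in C4 than in B3 and 1 was higher, against 27.8% lower and 28.6% higher over all tested genes. The median was -0.71 against 0.00064 over all tested genes. That of the list was -0.69 for C4 minus wild type and -0.03 for B3 minus wild type.

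The factor itself was lower in C4. ATF4 (ENSG00000128272.14, chr22:39519695-39522685, plus strand, GRCh38) had 16.11, 16.23 and 16.21 in wild type, 16.04, 16.00 and 16.02 in B3 and 15.18, 15.17 and 15.18 in C4, a difference of -0.84 ± 0.03 (limma adjusted p = 1.76e-17). The B3 libraries were within 0.25 of the wild-type libraries, and the C4 libraries were below both groups without overlap. Its partners and relatives CEBPG and CEBPB differed by -0.80 ± 0.03 and -0.38 ± 0.02, and the related factors DDIT3, ATF5 and ATF3 by -0.68 ± 0.04, -0.12 ± 0.03 and -0.14 ± 0.03.

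Among the targets, CHAC1, a glutathione-degrading enzyme (ENSG00000128965.12, chr15:40952962-40956519, plus strand, GRCh38), had 12.63, 12.74 and 12.71 in wild type, 12.71, 12.70 and 12.64 in B3 and 10.42, 10.48 and 10.43 in C4. Its difference of -2.24 ± 0.03 was the largest of the list. ASNS, the asparagine synthetase, had 14.60, 14.72 and 14.68 in wild type, 14.58, 14.58 and 14.60 in B3 and 13.08, 12.99 and 13.02 in C4, a difference of -1.56 ± 0.03. STC2, a secreted glycoprotein hormone, had 13.12, 13.06 and 13.10 in wild type, 13.08, 13.15 and 13.19 in B3 and 11.25, 11.23 and 11.24 in C4, a difference of -1.90 ± 0.03. In each of these genes B3 and wild type lay close together and C4 lay more than 1 log2 unit below both.

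The transporters and synthetic enzymes followed with smaller differences. SLC7A11, the cystine importer, was lower, at -1.23 ± 0.02, and the neutral amino acid transporter subunits SLC7A5 and SLC3A2, at -0.91 ± 0.03 and -0.70 ± 0.02. The serine synthesis enzymes PHGDH, PSAT1 and PSPH differed by -0.86 ± 0.02, -1.04 ± 0.03 and -0.55 ± 0.03, and MTHFD2 and SHMT2 of mitochondrial one-carbon metabolism by -1.10 ± 0.03 and -0.49 ± 0.03. TRIB3, a pseudokinase that damps the response, and SESN2, an inhibitor of growth signalling, differed by -1.16 ± 0.03 and -0.91 ± 0.03. The exception was ALDH18A1, the first enzyme of proline synthesis from glutamate, which was higher in C4 by 0.08 ± 0.02, while PYCR1, the last enzyme of that route, was lower, at -0.50 ± 0.03. ALDH1L2 and ADM2, a mitochondrial folate enzyme and a peptide of the calcitonin family, were not on the list and were lower, at -1.28 ± 0.03 and -1.61 ± 0.04.

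The cytosolic aminoacyl-tRNA synthetases, which load amino acids onto tRNAs, were mostly lower in C4. Of 20 tested, 15 were lower, 1 was higher and 4 were not called, with a median of -0.33. The synthetases for cysteine (CARS), tyrosine (YARS), glycine (GARS) and serine (SARS) had the largest differences, -0.74 ± 0.02, -0.67 ± 0.03, -0.66 ± 0.03 and -0.66 ± 0.03. HARS, for histidine, was higher by 0.13 ± 0.02, and KARS, QARS, RARS and LARS, for lysine, glutamine, arginine and leucine, had differences of 0.03, 0.02, -0.02 and -0.03. Genes of the other branch of the stress response, that of unfolded protein in the endoplasmic reticulum, had 8 of 23 higher and 7 lower, with a median of 0.04, beside 28.6% and 27.8% over all tested genes. The chaperone HSPA5 was not called at -0.02 ± 0.03, the transcription factor XBP1 and the degradation factor HERPUD1 were lower, at -0.65 ± 0.03 and -0.54 ± 0.03, and the stress kinase gene EIF2AK3 was higher by 0.26 ± 0.04.

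**Figure D2:**
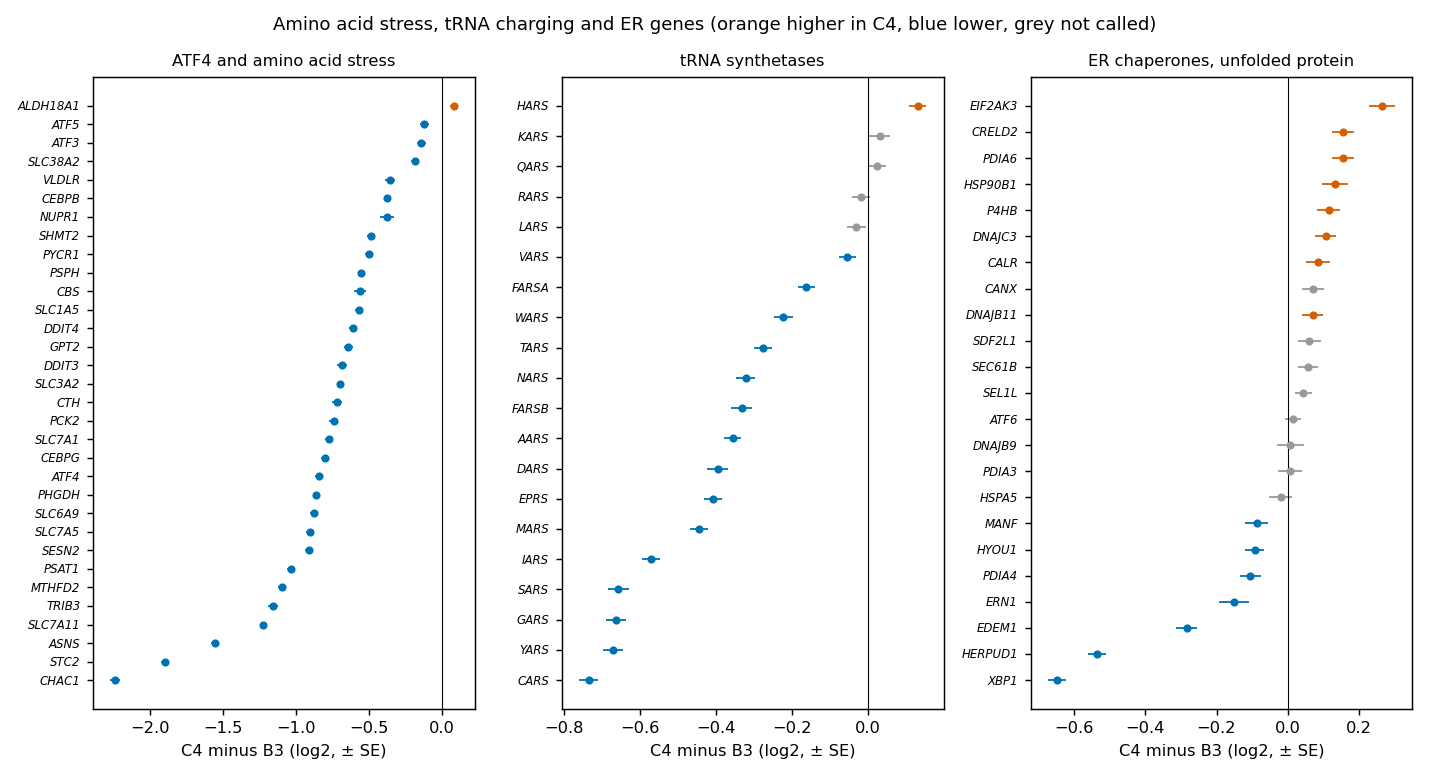
Difference between C4 and B3 (horizontal axis, log2 ± SE from limma, 3 libraries per line) for each tested gene of 3 lists, ordered by its value and coloured by call. The ATF4 list lies left of 0 except for ALDH18A1, the tRNA synthetases mostly left, and the endoplasmic reticulum genes on both sides.

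Promoter sequences of 3 of these genes show the letters that the search found. RefSeq promoters (GRCh38.p14, 250 bases before to 50 after a start) were searched on both strands for TGATGNAA, a core written for the amino acid response element. At least 1 match lay in 7 of the 26 ATF4-list genes with a promoter in the table (26.9%), in 6 of the 13 tRNA synthetases (46.2%) and in 380 of all 12568 tested genes with one (3.02%). The 250 bases before the start are given for CHAC1 (chr15:40953221-40953470, plus strand), ASNS (chr7:97872409-97872658, minus strand) and IARS, the isoleucine synthetase (chr9:92293698-92293947, minus strand), 5′ to 3′ along the gene. Capitals mark the match, which in CHAC1 and IARS is the complementary strand's.
CHAC1: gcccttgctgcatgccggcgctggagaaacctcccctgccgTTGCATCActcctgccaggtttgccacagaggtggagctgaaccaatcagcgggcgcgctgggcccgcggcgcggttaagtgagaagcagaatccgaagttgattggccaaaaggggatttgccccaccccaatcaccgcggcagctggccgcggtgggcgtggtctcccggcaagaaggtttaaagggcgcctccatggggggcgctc
ASNS: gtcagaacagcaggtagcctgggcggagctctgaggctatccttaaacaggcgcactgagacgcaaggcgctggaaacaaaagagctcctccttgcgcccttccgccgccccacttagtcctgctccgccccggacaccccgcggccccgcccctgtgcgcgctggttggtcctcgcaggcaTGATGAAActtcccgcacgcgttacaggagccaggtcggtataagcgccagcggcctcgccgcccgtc
IARS: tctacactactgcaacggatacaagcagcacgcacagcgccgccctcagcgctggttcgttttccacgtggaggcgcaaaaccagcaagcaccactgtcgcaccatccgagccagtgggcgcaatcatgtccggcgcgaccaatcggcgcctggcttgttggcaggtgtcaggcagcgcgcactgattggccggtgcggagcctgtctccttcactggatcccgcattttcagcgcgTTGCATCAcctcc
The match starts 209 bases before the start in CHAC1, 68 in ASNS and 13 in IARS, and these genes were lower in C4, at -2.24 ± 0.03, -1.56 ± 0.03 and -0.57 ± 0.02. A match is a description of the letters, and no binding was measured.

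Interferon response genes moved the other way. Type I interferons act through a complex that holds STAT2 and IRF9 on genes that restrict viruses, and the same genes can be kept at a basal level without infection. Of 42 tested, 35 were higher in C4 and 3 lower, against 28.6% and 27.8% of all tested genes. Another 4 were not called, and the median was 0.27. The median for C4 minus wild type was 0.33, and for B3 minus wild type 0.03. IFITM1, a membrane protein that blocks viral entry (ENSG00000185885.15, chr11:313506-315272, plus strand, GRCh38), had 11.34, 11.33 and 11.35 in wild type, 10.98, 10.80 and 10.93 in B3 and 11.95, 12.08 and 12.05 in C4, a difference of 1.13 ± 0.04. BST2, the tether of budding virions, had 11.47, 11.38 and 11.44 in wild type, 11.08, 10.94 and 11.11 in B3 and 11.94, 11.98 and 12.11 in C4, a difference of 0.96 ± 0.04. Both genes had the order B3, wild type, C4 without overlap.

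IFI6, a small membrane protein induced by interferon, had 13.11, 12.95 and 12.97 in wild type, 13.23, 12.99 and 13.22 in B3 and 13.76, 14.05 and 14.17 in C4. Its difference was 0.85 ± 0.07, and here B3 and wild type overlapped while C4 lay above both. MX2 and IFITM3 were higher in C4 by 0.94 ± 0.04 and 0.87 ± 0.02, and the IFIT genes IFIT3, IFIT2 and IFIT1 by 0.61 ± 0.03, 0.51 ± 0.03 and 0.33 ± 0.04. Of the factors themselves, STAT2 and IRF9 differed by 0.55 ± 0.03 and 0.31 ± 0.03. The exceptions were ISG20, IFITM2 and PLSCR1, an exonuclease, an entry inhibitor and a phospholipid scramblase, at -0.28 ± 0.04, -0.19 ± 0.05 and -0.16 ± 0.03. IFITM1, IFITM2 and IFITM3 have similar sequences, so reads may have been divided between them.

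The genes that present peptides on MHC class I, many of them also interferon responsive, were higher in C4 as well. Of 15 tested, 14 were higher and none lower, beside 28.6% and 27.8% of all tested genes. The median was 0.30, against 0.25 for C4 minus wild type and -0.10 for B3 minus wild type. HLA-C had 14.54, 14.45 and 14.43 in wild type, 14.39, 14.36 and 14.44 in B3 and 14.94, 15.01 and 15.05 in C4, a difference of 0.60 ± 0.03, without overlap between the lines. HLA-E, HLA-B and the shared light chain B2M differed by 0.55 ± 0.02, 0.48 ± 0.03 and 0.37 ± 0.03. The peptide transporter subunit TAP1 was higher by 0.26 ± 0.03, whereas TAP2 was not called at 0.04 ± 0.03. The HLA genes share sequence with one another, which makes the value of each uncertain.

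Promoters of 3 interferon genes are given because their letters recur in the list. The search on both strands for the letters GAAA, any 2 bases and GAAA again, a core of the interferon response element, found at least 1 match in 22 of 34 interferon genes with a promoter (64.7%), in 9 of 12 MHC class I genes (75.0%) and in 521 of 12568 tested genes (4.15%). The 250 bases before the start are those of IFITM3 (chr11:320861-321110, minus strand), IFI6 (chr1:27672193-27672442, minus strand) and BST2 (chr19:17405631-17405880, minus strand) from RefSeq on GRCh38.p14. Capitals mark the matches, of which those in BST2 overlap.
IFITM3: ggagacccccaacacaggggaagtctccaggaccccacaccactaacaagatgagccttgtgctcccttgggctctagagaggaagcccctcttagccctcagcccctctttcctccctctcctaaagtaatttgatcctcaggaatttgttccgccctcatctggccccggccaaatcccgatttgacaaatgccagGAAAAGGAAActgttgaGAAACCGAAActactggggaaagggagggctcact
IFI6: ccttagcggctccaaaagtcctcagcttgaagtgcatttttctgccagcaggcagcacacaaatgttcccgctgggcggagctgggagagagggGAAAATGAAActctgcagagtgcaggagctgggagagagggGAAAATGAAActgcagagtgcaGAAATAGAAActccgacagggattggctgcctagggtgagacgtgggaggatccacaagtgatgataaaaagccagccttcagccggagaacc
BST2: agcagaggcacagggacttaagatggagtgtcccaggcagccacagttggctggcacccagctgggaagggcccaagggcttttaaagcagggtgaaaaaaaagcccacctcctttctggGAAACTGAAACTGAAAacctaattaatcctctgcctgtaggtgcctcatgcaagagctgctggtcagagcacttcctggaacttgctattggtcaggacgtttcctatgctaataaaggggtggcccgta
The matches begin 52 and 35 bases before the start in IFITM3, 156, 115 and 93 in IFI6, and 130 and 124 in BST2. In C4 these 3 genes were higher by 0.87 ± 0.02, 0.85 ± 0.07 and 0.96 ± 0.04. Matches also lay in ISG20 and PLSCR1, which were lower in C4, and in TAP2, which was not called. A search for ACGTG, the core of the hypoxia response element, found it in 20 of 28 hypoxia targets (71.4%). Among tested genes it lay in 3949 of 12568 (31.4%), and the hypoxia list had a median difference of 0.01. These matches describe letters, and no binding was measured.

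NF-kB and inflammatory genes were lower in C4, unlike the interferon genes. NF-kB factors are held in the cytoplasm by inhibitors such as NFKBIA and induce cytokines, adhesion molecules and those same inhibitors. Of 28 tested genes, 22 were lower in C4 and none was higher, beside 27.8% and 28.6% of all tested genes. The other 6 were not called, and the median for C4 minus B3 was -0.40. The median was -0.57 for C4 minus wild type and -0.21 for B3 minus wild type. Beside CXCL8, the chemokines CXCL1 and CXCL3 differed by -0.89 ± 0.03 and -0.81 ± 0.05, the cytokine gene IL1A by -0.97 ± 0.04, and the iron-binding lipocalin gene LCN2 by -0.90 ± 0.06. The feedback genes TNFAIP3 and NFKBIA were lower, at -0.54 ± 0.03 and -0.48 ± 0.02. The subunit genes RELB and NFKB2 differed by -0.38 ± 0.03 and -0.42 ± 0.02, whereas RELA was not called at 0.04 ± 0.03, and IL6 was not called at -0.05 ± 0.02.

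Genes of lysosomes and of melanosomes, the related pigment organelles, were mostly higher in C4. Of 30 tested, 24 were higher and 1 was lower, against 28.6% and 27.8% of all tested genes, and 5 were not called. The median was 0.28, and the medians against wild type were 0.17 for C4 and -0.10 for B3. GPNMB, a glycoprotein of melanosomes and lysosomes that glioma cells often express (chr7:23235967-23275108, plus strand, GRCh38), had 15.08, 14.97 and 14.98 in wild type, 15.21, 15.27 and 15.28 in B3 and 16.79, 16.68 and 16.73 in C4. Its difference was 1.48 ± 0.03, and C4 lay above both other groups without overlap. The melanin enzymes DCT and TYRP1 differed by 1.50 ± 0.05 and 1.47 ± 0.04 and the collagen-degrading protease CTSK by 1.44 ± 0.04. The master regulators moved less: MITF differed by 0.06 ± 0.03 and TFEB by 0.30 ± 0.04, and TFE3 was not called at 0.03 ± 0.03. Acid hydrolases such as GAA, CTSA, CTSD and CTSB were higher by 0.68 ± 0.03, 0.49 ± 0.03, 0.42 ± 0.03 and 0.44 ± 0.03. The gene that was lower, ATP6V1H, a subunit of the proton pump, differed by -0.11 ± 0.02 and lies in a stretch of chromosome 8 that was low in C4.

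The genes of cell division were lower in C4, and by their medians the difference lay between B3 and wild type. Of 30 mitosis genes tested, 27 were lower in C4 than in B3 and 3 higher, beside 27.8% and 28.6% of all tested genes. Their median was -0.30. The median for B3 minus wild type was 0.28 and that for C4 minus wild type -0.01. PLK1, a kinase that drives entry into mitosis, had 13.28, 13.23 and 13.24 in wild type, 13.64, 13.62 and 13.66 in B3 and 13.22, 13.23 and 13.25 in C4. Its difference was -0.41 ± 0.02, and C4 overlapped wild type while B3 lay above both. The cyclin CCNB2, the ubiquitin-conjugating enzyme UBE2C and the spindle protein NUSAP1 differed by -0.48 ± 0.03, -0.40 ± 0.03 and -0.39 ± 0.02.

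BUB1, a kinase of the spindle checkpoint (chr2:110637698-110678114, minus strand, GRCh38), had 13.24, 13.12 and 13.12 in wild type, 13.47, 13.46 and 13.54 in B3 and 12.78, 12.83 and 12.84 in C4. Its difference of -0.67 ± 0.03 was the largest of the mitosis list, and C4 lay below wild type here. BUB1 lies in the stretch of chromosome 2 that was low in C4. The 3 genes higher in C4 were KIF20A, TTK and MKI67, at 0.13 ± 0.03, 0.09 ± 0.03 and 0.09 ± 0.04, and KIF20A and TTK lie in stretches of chromosomes 5 and 6 that were high in C4. MKI67, the gene of the Ki-67 antigen, had 14.76, 14.75 and 14.78 in B3 and 14.82, 14.83 and 14.93 in C4, with a limma adjusted p of 0.0259. Without C4 replicate 3 its difference was 0.06 with a limma adjusted p of 0.176, and it was also not called without B3 replicate 1 or B3 replicate 2 (limma adjusted p of 0.0595 and 0.0822), nor with robust moderation or with moderation without a trend. Of 29 genes of DNA replication, 25 were lower in C4 and none higher, beside 27.8% and 28.6% of all tested genes. Their median was -0.19, with 0.16 for B3 minus wild type and -0.01 for C4 minus wild type. The helicase subunit MCM6, the clamp loader subunit RFC3 and the factor E2F1 differed by -0.45 ± 0.02, -0.41 ± 0.03 and -0.36 ± 0.03, and PCNA by -0.14 ± 0.03. MCM6, like BUB1, lies in the stretch of chromosome 2 that was low in C4. Its C4 minus wild type was -0.43 and its B3 minus wild type 0.02, unlike the list medians.

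Of the p53 targets and CDK inhibitors, 11 of 26 were lower and 3 higher, with a median of -0.05. For this and the following lists, the shares over all tested genes were 27.8% lower and 28.6% higher. PMAIP1, SESN2 and BBC3 were lower, at -0.92 ± 0.03, -0.91 ± 0.03 and -0.46 ± 0.03, of which SESN2 is also on the ATF4 list, while the cell cycle inhibitor CDKN1A was not called at 0.01 ± 0.02. Replication-dependent histone genes, whose RNAs mostly lack a poly(A) tail and which share sequence, were lower in 13 of 20 and higher in none (median -0.09). Cytosolic ribosomal protein genes were lower in 27 of 44 and higher in none, with a median of -0.11. RPL8, RPL32 and RPL7 had the largest differences of that list, -0.53 ± 0.03, -0.34 ± 0.04 and -0.34 ± 0.03, and these 3 lie in stretches of chromosomes 8 and 3 that were low in C4. Without the 5 ribosomal protein genes in such stretches, 22 of 39 were lower, with a median of -0.09. Ribosomal protein genes have many processed copies, so their values are uncertain.

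**Figure D3:**
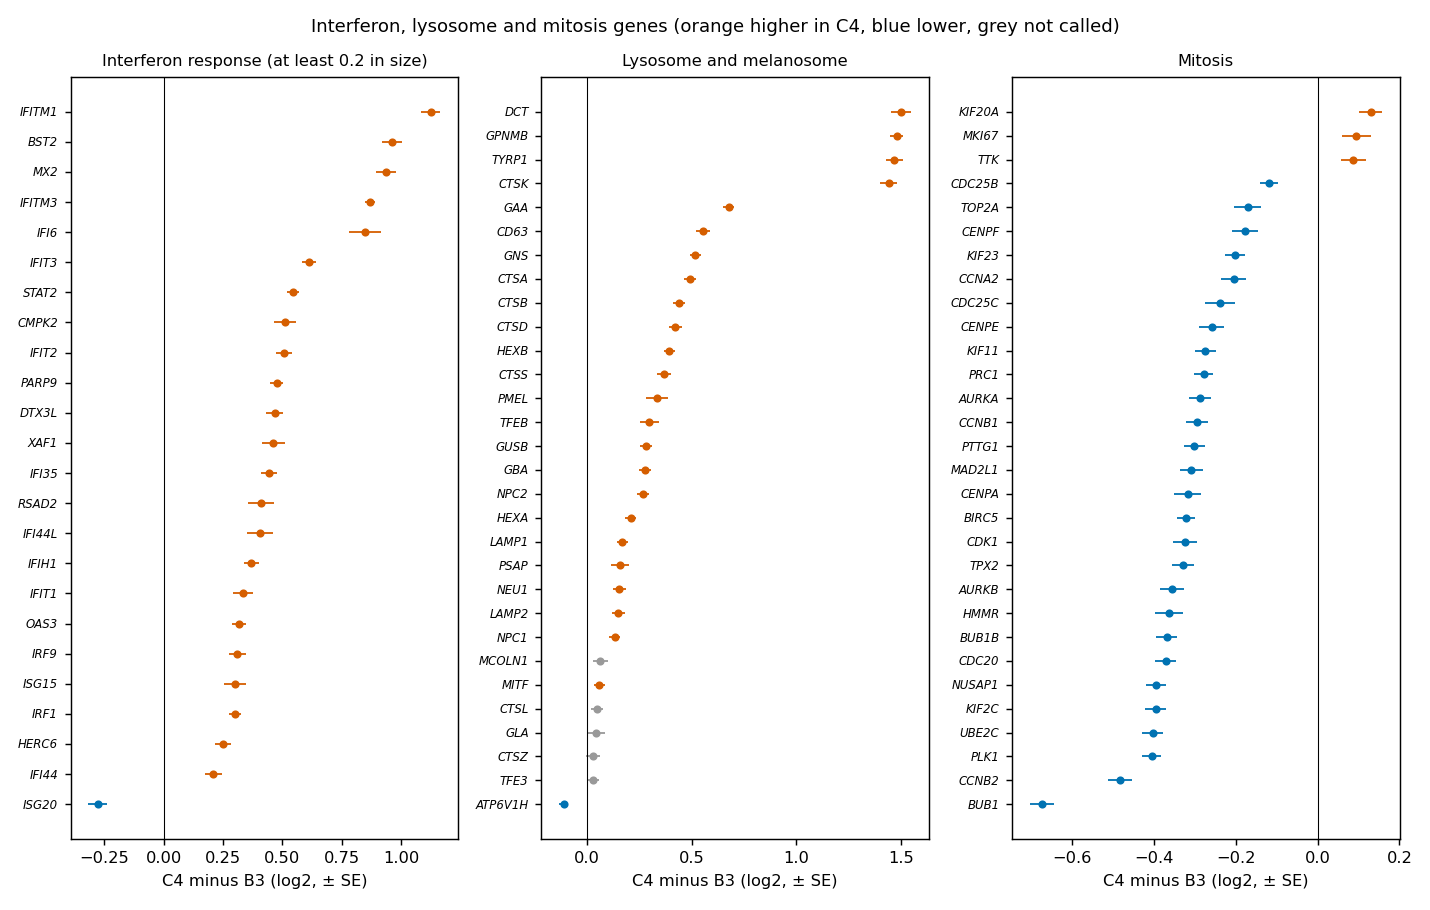
Difference between C4 and B3 (horizontal axis, log2 ± SE from limma, 3 libraries per line) for the genes of the interferon list with a difference of at least 0.2 in size and for each tested gene of the lysosome and melanosome and the mitosis lists, ordered by value and coloured by call. Interferon and lysosome genes lie mostly to the right, with IFITM1 and DCT at the top, and mitosis genes mostly to the left, with BUB1 lowest.

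Neighbouring genes differed together along parts of some chromosomes. GENCODE 29 gave a position to 15253 of the tested genes (92.7%), which filled 292 windows of 10 Mb with at least 10 genes. In 13 windows the median difference reached at least 0.25 in size, and in 242 windows (82.9%) it stayed within 0.1. The 13 windows held 510 genes, of which 81.6% were called, against 55.6% of the other genes. Because the windows were picked by the size of these same differences, a larger share called follows from the choice. They form 9 runs: on chromosome 2 from 100 to 140 Mb, chromosome 5 from 100 to 110 Mb, chromosome 6 from 70 to 90 Mb, chromosome 12 from 0 to 10 Mb, and 5 single windows of chromosome 8.

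The counts of these runs stand beside 27.8% lower and 28.6% higher over all tested genes. That they are uneven follows from picking the windows by these same differences. On chromosome 2, the 133 genes between 100 and 140 Mb had a median of -0.38, with 107 lower in C4 and 5 higher. The median for C4 minus wild type was -0.35 and for B3 minus wild type -0.01, so that C4 was the line away from wild type. Beside BUB1 and MCM6, the cell division gene CKAP2L, the cytokine gene IL1A and NCKAP5 lie there, at -0.98 ± 0.02, -0.97 ± 0.04 and -0.99 ± 0.05. On chromosome 6, the 65 genes between 70 and 90 Mb had a median of 0.37, with 52 higher in C4 and 2 lower. Here the median was -0.38 for B3 minus wild type and -0.01 for C4 minus wild type, so that B3 was the line away from wild type. Among them were MDN1, a giant ATPase of ribosome assembly, and RRAGD, a GTPase that signals amino acid supply, at 0.83 ± 0.04 and 0.75 ± 0.03. On chromosome 12, 74 of 98 genes between 0 and 10 Mb were higher in C4 and 4 lower, with a median of 0.28 and -0.21 for B3 minus wild type.

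Windows joined at a lower threshold of 0.1, set after these values were seen, gave 10 stretches with 1900 genes. Neighbouring windows were joined by the sign of these same differences, so uneven counts follow from the choice. The counts stand beside 28.6% higher and 27.8% lower over all tested genes. Chromosome 8 divided: 120 of 172 genes from 0 to 50 Mb were higher in C4 (median 0.19), 141 of 185 from 50 to 110 Mb were lower (median -0.20), and 102 of 135 from 120 to 150 Mb were lower (median -0.27). In the first of these, B3 lay below wild type (-0.15) and C4 close to it (0.02), and in the other pair C4 lay below wild type (-0.16 and -0.26) and B3 close to it (0.02 and 0.01). From 20 to 70 Mb of chromosome 12, 242 of 339 genes were higher in C4, with a median of 0.19 and -0.14 for B3 minus wild type. Chromosome 2 from 180 to 250 Mb and chromosome 3 from 0 to 20 Mb were lower in C4, with medians of -0.15 and -0.19. Chromosome 5 from 100 to 150 Mb and chromosome 7 from 20 to 60 Mb were higher, each with a median of 0.13.

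The median levels of C4 as a share of B3 in these stretches ran from 79.2% (chromosome 2, 90 to 140 Mb) to 130% (chromosome 6). DNA of these lines was not analysed here. These stretches and the 13 windows hold 12.1% of all tested genes. They hold 12 of the 50 genes higher in C4 by at least 1 (24.0%) and 2 of the 27 genes lower by at least 1 (7.41%), and the others lie outside or have no position. Within them, A2M, a protease inhibitor on chromosome 12, had 14.07, 14.05 and 14.15 in B3 and 15.56, 15.49 and 15.50 in C4, a difference of 1.43 ± 0.03 against a window median of 0.28, and wild type had 15.38, 15.27 and 15.25. CHL1 and GPNMB also lie in such stretches, and CHL1 ran against the direction of its own, on chromosome 3. Outside the stretches and the 13 windows, 53.5% of tested genes were called, counting both directions. There the ATF4 list had 27 of 28 genes lower (median -0.76) and the interferon list 32 of 38 higher (0.27). The NF-kB list had 19 of 24 lower (-0.40), the lysosome list 19 of 24 higher (0.24) and the mitosis list 25 of 26 lower (-0.31).

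**Figure D4:**
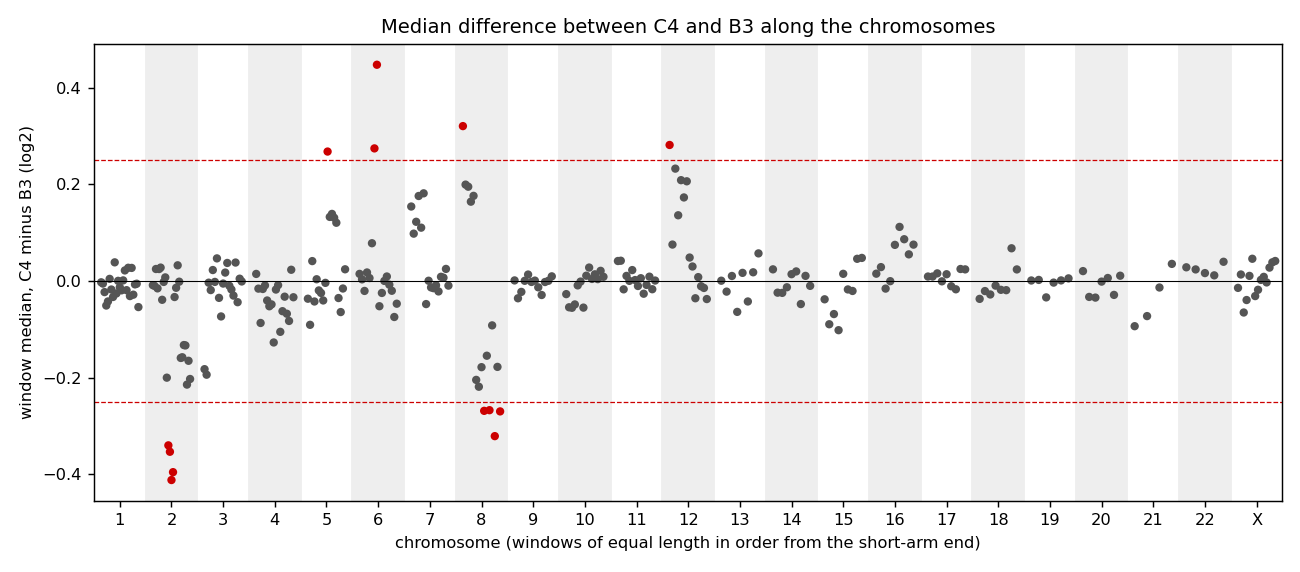
Median difference between C4 and B3 (vertical axis, log2) of the tested genes in each 10 Mb window with at least 10 genes, in chromosome order along the horizontal axis. Points past the dashed lines at 0.25 in either direction are red. Chromosome 2 has the lowest windows and chromosome 6 the highest, chromosome 8 passes from high to low, and most other chromosomes stay near 0.

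Of 19 bHLH-PAS family genes tested, the family of ARNT2 and its partners, 7 were higher in C4, 6 lower and 6 not called, with a median of 0.05. Over all tested genes 28.6% were higher and 27.8% lower. NPAS3, a neural member, differed by 0.67 ± 0.04, EPAS1, the hypoxia factor HIF-2 alpha, by 0.43 ± 0.03 and HIF1A by -0.39 ± 0.02. The aryl hydrocarbon receptor gene AHR was higher by 0.18 ± 0.02, the clock gene ARNTL lower, at -0.22 ± 0.04, and ARNT, the closest relative, was not called at -0.02 ± 0.02. Listed hypoxia inducible factor targets had 13 higher and 12 lower of 34, with a median of 0.01. Of these 34, 9 lie in the stretches or the 13 windows, and of the other 25, 6 were higher and 10 lower. ALDOC and SLC2A3 were higher by 0.89 ± 0.03 and 0.51 ± 0.03, and VEGFA and STC1 lower, at -1.37 ± 0.03 and -0.73 ± 0.04. SLC2A3 lies in the high window of chromosome 12, and STC1 ran against the high stretch of chromosome 8. PGK1, SLC2A1 and ADM were not called at -0.03 ± 0.02, 0.05 ± 0.03 and 0.02 ± 0.04.

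Immediate early genes, ERK pathway genes and receptor tyrosine kinases had members called in both directions, beside 27.8% lower and 28.6% higher over all tested genes. Of 26 immediate early genes, 17 were lower and 6 higher (median -0.15), with EGR2, FOSL1 and KLF4 at -1.02 ± 0.03, -0.57 ± 0.02 and -0.39 ± 0.03 and JUND and FOS at 0.19 ± 0.03 and 0.14 ± 0.03. Of 22 genes of ERK pathway output, 12 were lower and 6 higher (median -0.09). The feedback inhibitor SPRY1 was lower, at -0.54 ± 0.04, while the phosphatase DUSP4 and the inhibitor SPRY4 were higher by 0.37 ± 0.02 and 0.29 ± 0.03. Of 25 receptor tyrosine kinases, 13 were lower and 8 higher (median -0.08): the collagen receptor DDR2, PDGFRA and MET differed by -0.72 ± 0.02, -0.42 ± 0.03 and -0.40 ± 0.02, and FGFR1, EGFR and ERBB3 by 0.35 ± 0.03, 0.29 ± 0.04 and 0.27 ± 0.03. The last 3 lie in the stretches of chromosomes 8, 7 and 12 that were high in C4.

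Matrix and adhesion lists held large differences in both directions. Their counts stand beside 28.6% higher and 27.8% lower over all tested genes. Of 26 integrin and laminin genes, 14 were higher and 8 lower (median 0.13), with ITGA11, ITGA7 and LAMA5 at 1.04 ± 0.05, 0.98 ± 0.04 and 0.85 ± 0.03 and ITGB8 and ITGA5 at -0.52 ± 0.03 and -0.42 ± 0.02. Collagens and other matrix genes gave 15 higher and 12 lower of 36 (median 0.02). COL8A1, COL12A1 and COL11A1 differed by 0.57 ± 0.03, 0.56 ± 0.03 and 0.52 ± 0.03, whereas the small proteoglycans LUM, DCN and BGN were lower, at -0.81 ± 0.03, -0.78 ± 0.05 and -0.50 ± 0.03. Neural adhesion molecules gave 11 higher and 10 lower of 26 (median -0.03): beside CADM2 and CHL1, L1CAM was higher by 0.74 ± 0.05, and FLRT1 and NTM were lower, at -0.85 ± 0.06 and -0.59 ± 0.03. Of 28 mesenchymal transition genes, 13 were lower and 4 higher (median -0.04), with SNAI2, TWIST2 and VIM at -0.67 ± 0.04, -0.52 ± 0.03 and -0.31 ± 0.04 and TIMP1 at 0.52 ± 0.03.

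Of 21 astrocyte genes, 13 were higher in C4, 1 was lower and 7 were not called, with a median of 0.17, beside 28.6% higher and 27.8% lower over all tested genes. AGT, the angiotensinogen gene, ALDOC, an astrocyte aldolase, the chaperone CLU and the glutamate transporter SLC1A3 differed by 1.08 ± 0.05, 0.89 ± 0.03, 0.66 ± 0.05 and 0.60 ± 0.03, and the gap junction gene GJA1 by -0.54 ± 0.03. GFAP, the defining intermediate filament of astrocytes, was not called at -0.02 ± 0.05, and its 9 libraries lay between 6.61 and 6.98. S100B was not called at 0.07 ± 0.03. Of 16 oligodendrocyte lineage genes, 10 were higher and 6 lower (median 0.18), with GPR37 and MYRF at 0.46 ± 0.03 and 0.42 ± 0.03 and PDGFRA and MAG at -0.42 ± 0.03 and -0.35 ± 0.02. Neuron genes gave 5 higher and 6 lower of 16 (median -0.04), MAP2 being higher by 0.28 ± 0.02 and TUBB3 lower, at -0.11 ± 0.03. In bulk samples such as these, fewer cells of a type and less RNA per cell cannot be told apart.

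Stem cell genes, to which the title of the study points, had 7 higher and 8 lower of 27 and a median of -0.00066. Over all tested genes 28.6% were higher and 27.8% lower. ID1, EZH2 and SOX2 were lower in C4, at -0.67 ± 0.03, -0.29 ± 0.02 and -0.22 ± 0.03, and FABP7 and OLIG2 were higher by 0.42 ± 0.03 and 0.25 ± 0.03. NES, an intermediate filament of neural progenitors, was not called at -0.01 ± 0.03, nor were PROM1 and CD44 at 0.09 ± 0.04 and 0.06 ± 0.03. Across the 9 libraries NES lay between 15.32 and 15.47, SOX2 between 12.19 and 12.50 and VIM between 17.83 and 18.23. These genes were thus present in every library. Some other members of the stem cell list were low, with PROM1 between 5.26 and 5.51, SOX9 between 4.09 and 4.23 and SOX21 between 2.77 and 2.86. Among the astrocyte genes, AQP4 lay between 3.91 and 3.99 and ALDH1L1 between 1.29 and 1.32. SOX21 and ALDH1L1 were under the filter on low values.

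Markers of other cell types were checked in the same libraries. Their counts stand beside 28.6% higher and 27.8% lower over all tested genes. The leukocyte gene PTPRC lay between 2.35 and 2.40 in all 9 libraries and the B cell gene MS4A1 between 0.83 and 0.86, both under the filter on low values. The endothelial gene PECAM1 lay between 5.19 and 5.46 and the epithelial gene EPCAM between 5.59 and 5.97. Other members of these lists were well expressed. The immune marker CD68 lay between 10.68 and 10.99, the endothelial marker EGFL7 between 10.95 and 11.61 and the epithelial marker KRT18 between 13.69 and 14.09. Of 8 immune markers tested, 4 were higher in C4 and 2 lower, led by the class II genes HLA-DRA and CD74 at 0.53 ± 0.03 and 0.39 ± 0.04. The summed level of the immune markers, the log2 of the summed antilogs, was 19.24 to 19.33 in wild type, 19.23 to 19.32 in B3 and 19.68 to 19.71 in C4. CD74 and HLA-DRA made up most of this sum. The part of the immune markers in the interferon and MHC differences was not tested. Of 13 endothelial and pericyte markers, 4 were higher and 4 lower, with RGS5 at 1.32 ± 0.05. The summed level was 17.51 to 17.55 in wild type, 16.99 to 17.05 in B3 and 16.89 to 16.97 in C4. CSPG4, which is also on the oligodendrocyte lineage list, made up most of this sum. It had 17.403 to 17.451 in wild type, 16.867 to 16.942 in B3 and 16.735 to 16.833 in C4. Of 12 epithelial markers, 2 were higher and 1 lower, the keratins KRT8 and KRT18 at 0.59 ± 0.04 and 0.30 ± 0.03, which lie in the high stretch of chromosome 12, and CLDN7 at -0.08 ± 0.03. The summed level of the epithelial markers was 14.52 to 14.67 in wild type, 14.21 to 14.27 in B3 and 14.54 to 14.59 in C4. KRT18 and KRT8 made up most of this sum.

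The remaining lists had members called in both directions, beside 28.6% higher and 27.8% lower over all tested genes. Cholesterol synthesis genes gave 16 higher and 3 lower of 24 (median 0.12), with INSIG1 at 0.38 ± 0.03 and SQLE, on the low part of chromosome 8, at -0.27 ± 0.03. Oxidative phosphorylation genes gave 8 higher (5 without a filter on low values) and 14 lower of 34, of which 9 lie in the stretches or the 13 windows, among them NDUFB9 on chromosome 8 at -0.50 ± 0.02 and COX7A2 on chromosome 6 at 0.39 ± 0.02. TGF-beta, BMP and ID genes gave 8 higher and 10 lower of 26, with ID3 at -0.40 ± 0.03 and ID4 at 0.43 ± 0.02. Notch genes gave 4 higher and 9 lower of 20, with HEY1 at -0.58 ± 0.04, Wnt genes 9 and 10 of 26, with FZD1 at -0.65 ± 0.03, and YAP/TAZ targets 11 and 9 of 26, with the coactivator gene WWTR1 at 0.46 ± 0.03.

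**Figure D5:**
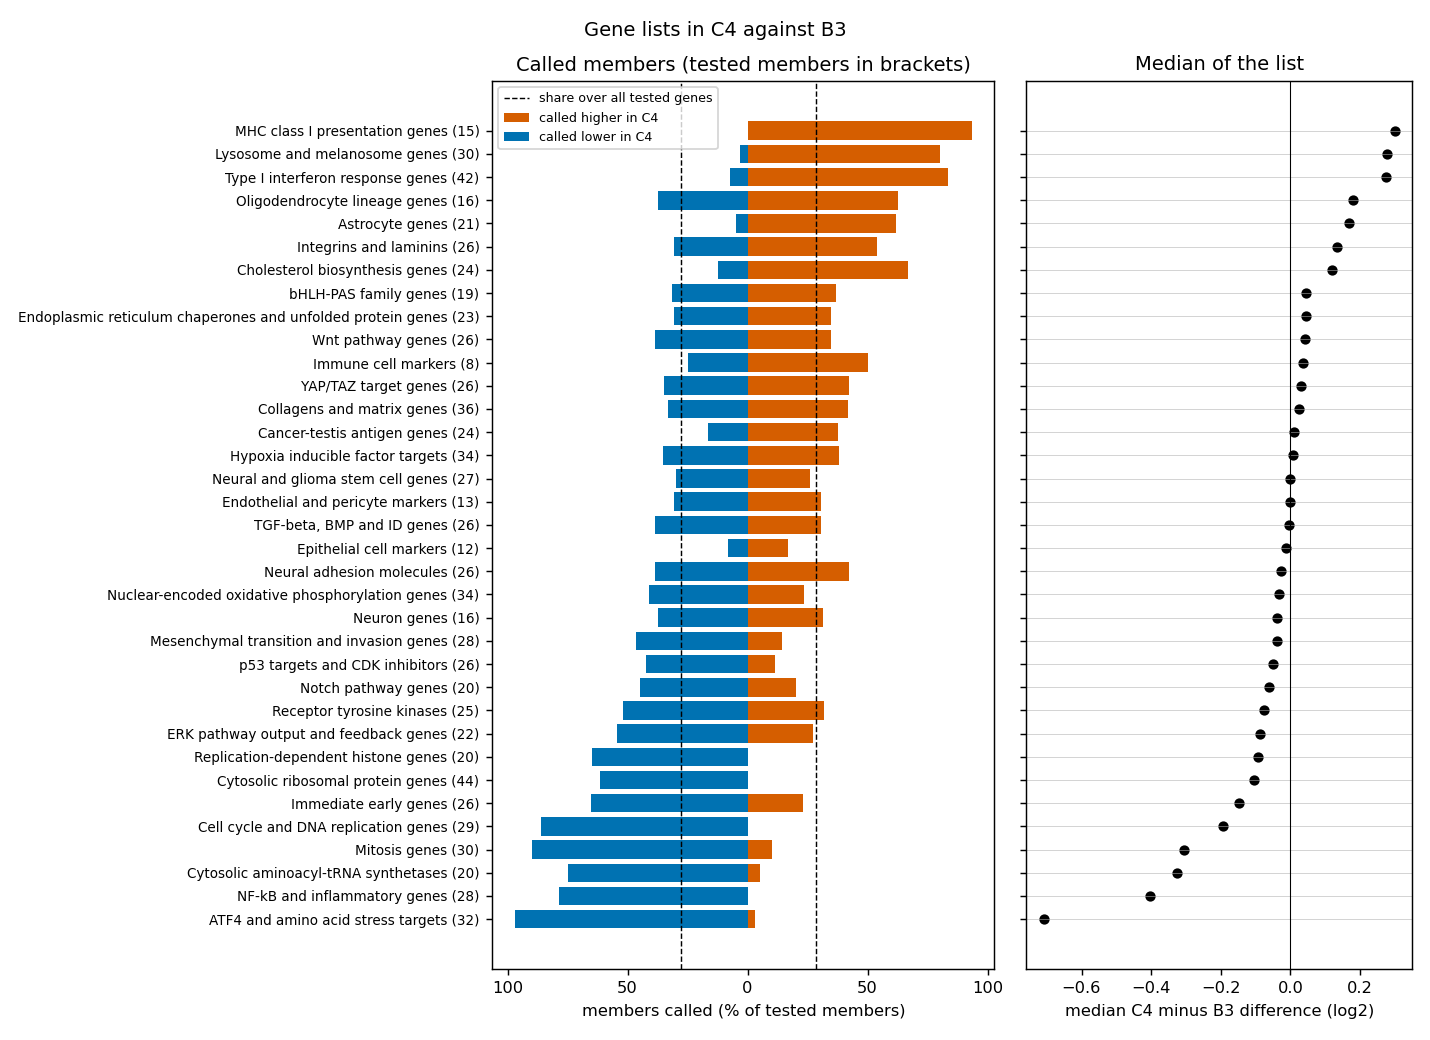
Share of the tested members of each of the 35 lists that were called higher (orange) or lower (blue) in C4, with dashed lines at the shares over all tested genes (28.6% and 27.8%), and at right the median difference of each list (log2). The MHC class I, lysosome and interferon lists are at the top and the mitosis, tRNA synthetase, NF-kB and ATF4 lists at the bottom.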

How the data were processed

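Polyadenylated RNA was sequenced in 9 libraries. Values for 19356 genes were deposited on a log2 scale, which the authors had made comparable between libraries. The tools were DESeq2 (no version given), Subread 1.6.3 and STAR 2.7.3a and the build hg38, per the submitters' processing notes. The transform is not named there. Its damping of weakly expressed genes is inferred from the values, and reads could not be recovered. Among the gene names, 25 are dates and were kept.

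The plan had assumed linear values; the log2 values were used as deposited. The filter asked for a mean antilog, over the 9 libraries, of 10 or more, which 16457 genes passed and 2899 did not. All 9 libraries entered 1 fit with limma 3.58.1 in R 4.3.3 (file reading by data.table, version 1.17.8), modelled as 1 mean per group, with an intensity trend and 6 residual degrees of freedom. Tests were two-sided with Benjamini-Hochberg adjustment over all tested genes, at 0.05. The fit was tested on simulated data with normal noise, in which only a small share of genes differed, unlike the 56.4% called here. There, more of its calls were false than the threshold sets, and the smallest differences were often missed. Whether these rates hold for the reported calls was not tested. Summaries were made with Python 3.11.15, pandas 2.3.3 and scipy 1.17.1.

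The comparison, its members and the 35 gene lists were chosen with earlier results of these data known. Named genes were the 15 furthest apart in each direction with no overlap of libraries and a mean antilog of 50 or more, up to 4 per list, up to 6 in each direction on opposite sides of wild type, 3 per run of windows, and fixed markers. Passed over were names of clones, uncharacterised genes, pseudogenes, antisense RNAs and dates, and all long intergenic non-coding RNAs, the last extended to every gene of that class after values were seen. Other members are named from the lists, and a few are not reported here. Positions are from GENCODE 29 (GRCh38), and promoters from RefSeq (GRCh38.p14), matched by symbol for 12568 tested genes. Alternatives were other filters, a pseudocount of 10 on the antilog, other scalings, only the B3 and C4 libraries, robust or untrended moderation, a replicate block, leaving out each library, and other windows.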

Additional observations from a re-analysis of the deposited data

Results flagged for a closer look

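In 12 genes the lines lay on opposite sides of wild type. In each, limma called C4 against wild type, B3 against wild type with the opposite sign, and C4 against B3 (adjusted p under 0.05). The genes were chosen as the 6 furthest apart in each direction among those, so their values are a description and no further test. The C4 minus B3 values were as follows. Higher in C4 were MAGEC2 (2.57), CADM2 (2.45), NRN1 (2.32), CPXM2 (2.16), MGST1 (2.11) and CHL1 (1.90). Lower in C4 were HAPLN1 (-2.40), ACAN (-1.66), ADM2 (-1.61), HS3ST3A1 (-1.50), CYB5R2 (-1.45) and SLC14A1, a urea transporter (-1.27).

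The share of each line in that distance varied. CHL1 lay 1.70 above wild type in C4, with B3 minus wild type at -0.20, and ADM2 had C4 minus wild type at -1.49 and B3 minus wild type at 0.12. In CPXM2 and MGST1 it was the reverse, with B3 minus wild type at -1.86 and -1.80 and C4 minus wild type at 0.30 in both.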

How the results depend on the processing

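The count of called genes ran from 8363 (without C4 replicate 2) to 9596 (without WT replicate 1), against 9284 as reported. With the replicate number as a block it was 9017. The numbers did not pair the lines: deviations of same-numbered B3 and C4 libraries correlated at -0.11, 0.01 and -0.07. By at least 1 in size, 46 to 53 genes were higher in C4 and 27 to 31 lower over all alternatives. Listed oxidative phosphorylation genes called higher were 5 in place of 8 without a filter, with the same total or the same median in every library, with moderation without a trend and with the replicate block, and 5 to 8 when single libraries were left out (5 without B3 replicate 2, C4 replicate 1, C4 replicate 2 or WT replicate 3). With single libraries left out, the higher calls ran from 0 (without B3 replicate 1) to 1 in the ATF4 list, from 1 (without B3 replicate 1 or 2) to 3 in mitosis, from 0 to 1 (without B3 replicate 3) in histones and from 2 (without C4 replicate 3) to 4 in Notch genes. The lower calls among epithelial markers ran from 0 (without B3 replicate 1 or C4 replicate 1) to 2 (without C4 replicate 3). With a mean antilog of at least 50, 2 immune markers were higher and 0 epithelial markers lower. Shifted windows numbered 25 at 5 Mb, 6 at 20 Mb and, at a threshold of 0.1 chosen after seeing the data, 50 of 292. Of the named genes, those that reversed were not called as reported: GFAP ran from -0.059 to 0.0315 with single libraries left out, above 0 without B3 replicate 3 and without C4 replicate 1 (0.0258), and NES from -0.0257 to 0.0047, above 0 without B3 replicate 2. Beside MKI67, CLDN7 lost its call without B3 replicate 1, C4 replicate 1 or C4 replicate 3 (limma adjusted p of 0.178, 0.0633 and 0.0502). CD44 and S100B gained one without a filter, with only the B3 and C4 libraries and without WT replicate 1, and S100B also without C4 replicate 3 or WT replicate 2. The cause was not tested. Precision is set by 3 libraries per group, and depth is unknown.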

Other observations

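Further genes outside the lists stood far apart between the lines, and they are named after their values were seen. Their values are a description, and no theme is drawn from them. KCNJ10, a potassium channel, MAOB, a monoamine oxidase, and MEGF10, an engulfment receptor, were higher in C4 by 0.99 ± 0.03, 0.99 ± 0.04 and 1.06 ± 0.04. Also higher were CFB, complement factor B, APOL1, an apolipoprotein, and UBA7, the activating enzyme of the ISG15 modifier, at 1.19 ± 0.06, 1.00 ± 0.03 and 1.02 ± 0.03. Lower in C4 were PTX3, a secreted pattern recognition protein, IL13RA2, a decoy receptor for IL-13, and NPR3, a natriuretic peptide receptor, at -1.09 ± 0.04, -0.94 ± 0.04 and -0.93 ± 0.05.

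On chromosome 8, 3 neighbouring genes went against the stretch from 50 to 110 Mb. In that stretch 141 of 185 genes were lower in C4, beside 27.8% of all tested genes. SDC2, a heparan sulfate proteoglycan, CPQ, a carboxypeptidase, and MATN2, a matrix adaptor protein, lie between 96493351 and 98036716 on GRCh38. They were higher in C4 by 1.39 ± 0.03, 1.02 ± 0.03 and 1.26 ± 0.03, with C4 minus wild type at 1.02, 0.69 and 0.52 and B3 minus wild type at -0.37, -0.33 and -0.75.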
